A study of Mus musculus with 24 samples.

Results

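The comparison described here was between a pair of mouse astrocyte lines made from the same male cell culture (called m1), one expressing p53 Y202C and the other expressing p53 Y217C. Both are tyrosine-to-cysteine changes in the DNA-binding part of p53. The libraries of each line were found by their sample labels, 3 polyA RNA-seq libraries of m1 Y202C and 3 of m1 Y217C, which make 6 of the 24 libraries of the study. All 14427 genes of the deposited count table were tested. The study also held an m1 knockout line without p53 (KO), an m1 line with p53 R172H, and the same 4 kinds of line from a female culture (f1).

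The cells came from the cortices of postnatal day 1 pups on a C57BL/6 background whose Trp53 alleles were 1 floxed and 1 deleted copy, and the astrocytes of several pups were combined for each sex. Mutant Trp53 was introduced with an IRES-eGFP retrovirus, eGFP-positive cells were sorted, and the floxed allele was then removed with a Cre lentivirus carrying puromycin resistance, so that no line compared here kept an intact p53 gene of its own. KO lines received Cre without a mutant. Cells were grown in serum-containing medium and harvested at passages 10 to 15. Each mutant was represented by a line from 1 transduction of the m1 culture, and the 3 libraries of a line came from cells plated separately. An effect of the amino acid change and any other difference between the lines can therefore not be told apart, and p-values measure only the spread between libraries of the same line.

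Wild-type p53 is a transcription factor that halts the cell cycle, promotes repair or triggers cell death after stress. Missense mutations in its DNA-binding part disrupt this program, and the resulting stable mutant proteins can associate with other transcription factors. Astrocytes are the glial cells that take up glutamate, support synapses and respond to injury by a reactive state with inflammatory and scar-forming genes, and astrocyte-like cells are among the candidate origins of glioblastoma.

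Library totals lay between 66162441 and 101576797 counts in m1 Y202C and between 70022599 and 75111776 counts in m1 Y217C. Replicates of a line correlated at 0.993 to 0.995 in Y202C and at 0.994 to 0.995 in Y217C (Pearson, log2 CPM across genes, where CPM is the count per 1000000 counts of the library total after scaling by its TMM factor in edgeR), and each pair of replicates differed by more than counting noise. The test was the edgeR quasi-likelihood test with Benjamini-Hochberg adjustment over all genes, and a gene was called at an adjusted p of at most 0.05. Levels are given in CPM, as mean ± SD with n = 3 libraries per line unless each library is listed. Log2 fold changes are Y202C minus Y217C, ± SE of the fit, and a positive value means a higher level in Y202C.

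Trp53 itself (chr11:69580359-69591873, plus strand, GRCm38) was measured first. Its level was 2444, 2268 and 2259 CPM in the Y202C libraries and 1188, 1247 and 1211 CPM in the Y217C libraries. Every Y202C library lay above every Y217C library (log2 fold change 0.94 ± 0.05, adjusted p = 1.4e-13). In the m1 KO line the level was 50.9 ± 2.75 CPM, and in m1 R172H it was 2287 ± 80.2 CPM, the range of Y202C. The 2 lines compared thus differed in mutant Trp53 mRNA as well as in the mutation. The counts do not separate transcripts of the retrovirus from those of the remaining Trp53 locus.

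Most genes differed between the lines. Of 14427 genes tested, 10609 were called, which is 73.5% of genes tested. A higher level in Y202C was called for 5478 genes (38.0%) and a higher level in Y217C for 5131 genes (35.6%). Counts of genes called in m1 in the lists below are to be read beside these shares. The median log2 fold change over all genes was 0.01, and the median absolute change among called genes was 0.64. A change above 2-fold (log2 above 1) was called for 3060 genes (21.2%), of which 1372 were higher in Y202C and 1688 were higher in Y217C. Above 16-fold (log2 above 4), 64 genes were higher in Y202C and 142 were higher in Y217C. On the log2 CPM scale, the distance between the Y202C and Y217C means over all genes was 132, close to the 131 and 141 that separated Y202C and Y217C from the m1 KO line and above the 72.1 between m1 R172H and m1 KO. The plot of fold change against level shows the calls over the whole range of abundance.

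**Figure D1:**
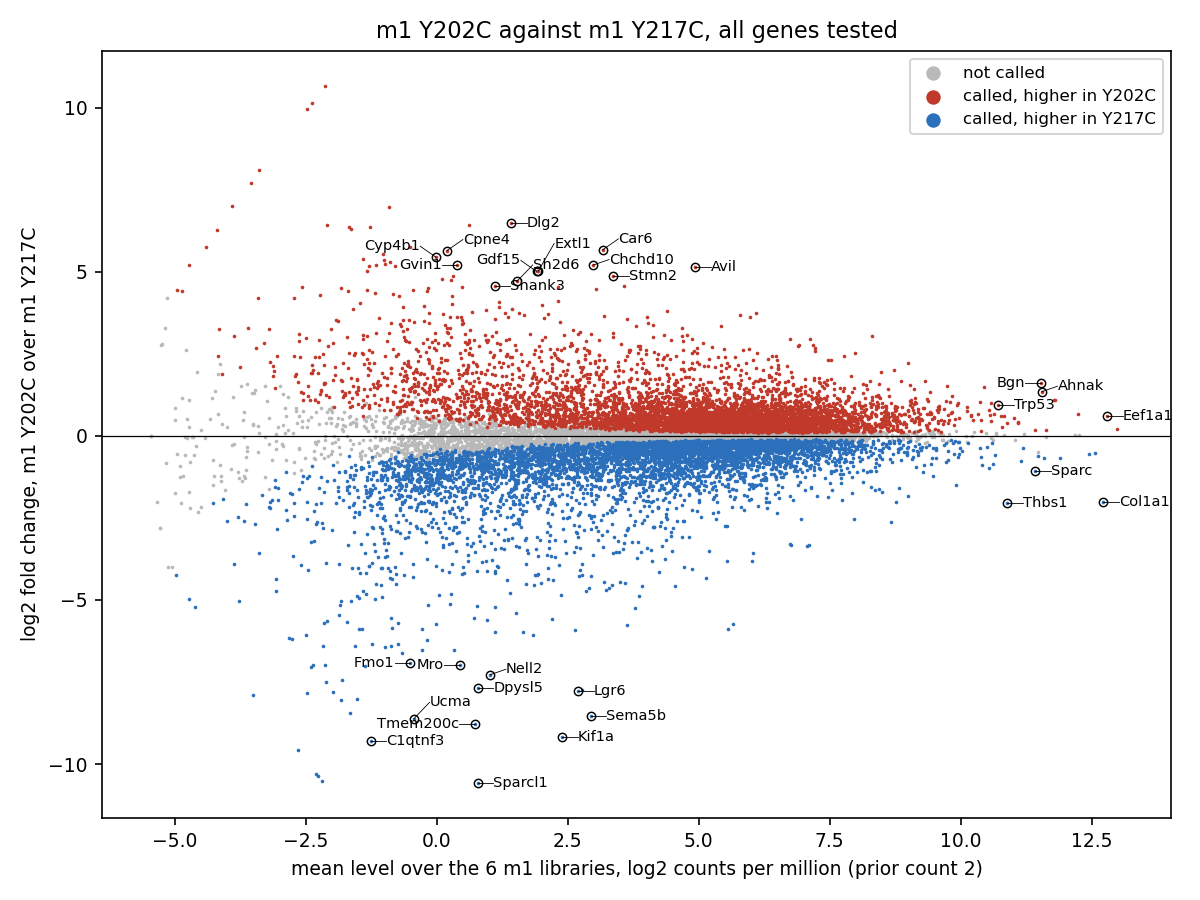
Each point is 1 of the 14427 genes tested, with its mean log2 CPM over the 6 m1 libraries on the x axis and its log2 fold change (Y202C over Y217C) on the y axis. Red points were called higher in Y202C, blue points higher in Y217C, and circles mark named genes. The largest differences on the Y217C side (Sparcl1, -10.58) exceed those of the labelled genes on the Y202C side (Dlg2, 6.48).

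The 12 named genes furthest toward Y202C were taken from genes at 5 CPM or more in each library of that line. Dlg2, which encodes a postsynaptic scaffold protein, was measured at 22.5, 24.7 and 25.8 CPM in the Y202C libraries and 0.274, 0.298 and 0.241 CPM in the Y217C libraries. The line means differed by a log2 fold change of 6.48 ± 0.26 (adjusted p = 1.9e-16), and no library of Y217C reached 1 CPM. Car6, a secreted carbonic anhydrase, had 55.4, 64.8 and 71.2 CPM in the Y202C libraries and 1.29, 1.37 and 1.1 CPM in the Y217C libraries (log2 fold change 5.67 ± 0.16, adjusted p = 3.9e-19). Avil, which encodes advillin, an actin-severing protein of sensory neurons, was the most abundant of the group, at 167, 200.1 and 178 CPM in the Y202C libraries and 6.35, 4.26 and 4.93 CPM in the Y217C libraries (log2 fold change 5.13 ± 0.17, adjusted p = 8.0e-18). In the m1 KO line Avil stood at 2.34 ± 0.515 CPM and in m1 R172H at 3.08 ± 0.758 CPM, so the level of Y202C was apart from all 3 other m1 lines. Avil overlaps Tsfm on the opposite strand, so its counts are uncertain. Cyp4b1, a cytochrome P450, was at 6.24 ± 0.539 against 0.141 ± 0.0617 CPM and was listed at 0 counts in all libraries of m1 KO and m1 R172H.

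Gdf15, a stress-induced cytokine of the TGF-beta family, was measured at 25.4, 20.1 and 18.2 CPM in the Y202C libraries and 0.823, 0.634 and 0.509 CPM in the Y217C libraries (log2 fold change 5.01 ± 0.27, adjusted p = 4.6e-14). Stmn2, a microtubule-destabilising protein of growing neurites, was at 55.8 ± 4.81 against 1.91 ± 0.282 CPM, with 24 ± 2.44 CPM in m1 KO. Shank3, a synaptic scaffold, was at 10.2 ± 0.53 against 0.432 ± 0.0618 CPM and at 13.9 ± 0.969 CPM in m1 KO, so that here Y217C was the line apart from KO. The remaining genes of the 12 with the largest positive change were Cpne4, a calcium-dependent membrane-binding protein (5.65 ± 0.41), Chchd10, a mitochondrial protein (5.21 ± 0.24), Gvin1, a large interferon-inducible GTPase (5.19 ± 0.22), Extl1, a glycosyltransferase of heparan sulfate synthesis (5.03 ± 0.23), and Sh2d6, which carries an SH2 domain (4.71 ± 0.28). Chchd10 overlaps Mmp11 on the opposite strand, Mmp11 was also called higher in Y202C (1.37 ± 0.09), and the strand used in counting is not given in the sources used here. Gvin1 has close copies in its gene cluster, among which reads may be split.

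The differences toward Y217C were larger. Sparcl1, a secreted synapse-organising protein of astrocytes, was measured at 0.020, 0.0542 and 0.0305 CPM in the Y202C libraries and 56.4, 42.3 and 61.3 CPM in the Y217C libraries. In Y202C this was 2, 4 and 2 counts per library, Sparcl1 overlaps the predicted gene Gm26703, and the line means differed by -10.58 ± 0.42 on the log2 scale (adjusted p = 1.8e-16). Kif1a, the motor that carries synaptic vesicle precursors along axons, was measured at 0.23, 0.19 and 0.198 CPM in the Y202C libraries and 125, 114 and 125 CPM in the Y217C libraries (log2 fold change -9.18 ± 0.14, adjusted p = 2.2e-23). Neither line was near the m1 KO level of Kif1a, 8.22 ± 0.519 CPM. Sema5b, a transmembrane semaphorin, was measured at 0.33, 0.393 and 0.458 CPM in the Y202C libraries and 153, 127 and 148 CPM in the Y217C libraries (log2 fold change -8.52 ± 0.24, adjusted p = 2.7e-19). Lgr6, a receptor for R-spondins, had 0.436 ± 0.131 against 94.5 ± 2.98 CPM.

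C1qtnf3, a secreted C1q/TNF-related protein, had 2 counts in all in Y202C, both in replicate 1, and its rate in Y217C was 738 times as high (95% Poisson interval of the Y202C counts 204 to 6091, counting error only). Without that library C1qtnf3 was at 0 in Y202C and its fitted log2 fold change went from -9.31 to -12.07, a value that then depends on the prior count. Tmem200c, a transmembrane protein, had 6, 9 and 2 counts in the Y202C libraries and 0.0708 ± 0.0466 against 31.9 ± 1.33 CPM. Others of the 12 were Ucma, a cartilage matrix protein (-8.62 ± 0.65), Dpysl5, a collapsin response mediator (-7.69 ± 0.42), Nell2, a secreted axon-guidance ligand (-7.28 ± 0.30), Mro, the maestro gene (-6.97 ± 0.36), and Fmo1, a flavin monooxygenase (-6.93 ± 0.35). In m1 KO the 7 genes Sparcl1, C1qtnf3, Tmem200c, Ucma, Dpysl5, Mro and Fmo1 each had a mean below 1 CPM, so that for these Y217C was the line that stood apart within the m1 culture.

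The 6 largest differences in CPM toward each line were in abundant transcripts of the matrix, the cytoskeleton, translation and mitochondria. Higher in Y202C were Bgn, the proteoglycan biglycan, at 5175 ± 381 against 1709 ± 81.5 CPM (1.60 ± 0.06), Ahnak, a giant scaffold protein, at 4781 ± 539.7 against 1881 ± 89.2 CPM (1.35 ± 0.11), Myh9, the heavy chain of non-muscle myosin, at 5195 ± 528 against 2411 ± 95.1 CPM (1.11 ± 0.06), and the translation elongation factors Eef1a1 (0.59 ± 0.06) and Eef2 (0.68 ± 0.08). Higher in Y217C were Thbs1, the matricellular protein thrombospondin, at 933 ± 112 against 3861 ± 296 CPM (-2.05 ± 0.08), and Sparc, a collagen-binding matrix protein, at 1901 ± 67.4 against 3959 ± 141 CPM (-1.06 ± 0.06). The chains of type I collagen went in opposite directions. Col1a1 was measured at 3759, 3258 and 3067 CPM in the Y202C libraries and 13374, 14059 and 13524 CPM in the Y217C libraries (log2 fold change -2.02 ± 0.08, adjusted p = 1.4e-16), and Col1a2 was measured at 5764, 5159.7 and 4657 CPM in the Y202C libraries and 2427, 2432 and 2512 CPM in the Y217C libraries (log2 fold change 1.08 ± 0.09, adjusted p = 7.2e-11). Both were below the m1 KO level in both lines, at 17294 ± 1546 CPM for Col1a1 and 10262 ± 947 CPM for Col1a2 in KO.

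The RefSeq promoter windows of the strongly different genes held fewer CpG dinucleotides than those of all genes tested. A window ran from 250 bases before to 50 bases after an annotated start (GRCm38.p6), and 13206 windows of 10290 genes were matched by symbol. The median CpG count per window was 20 over all genes, 11 for genes called more than 4-fold higher in Y202C (418 windows of 313 genes) and 12 for genes called more than 4-fold higher in Y217C (478 windows of 363 genes). The median GC content was 60.7%, 56.5% and 58.3%, respectively. The window of Avil, the most abundant of the 12 genes on the Y202C side, and that of Gfap, the marker that defines astrocytes and was higher in Y217C, are printed as low-CpG examples, with 2 and 3 CpG in capitals.
Avil, chr10:127000459-127000758, plus strand: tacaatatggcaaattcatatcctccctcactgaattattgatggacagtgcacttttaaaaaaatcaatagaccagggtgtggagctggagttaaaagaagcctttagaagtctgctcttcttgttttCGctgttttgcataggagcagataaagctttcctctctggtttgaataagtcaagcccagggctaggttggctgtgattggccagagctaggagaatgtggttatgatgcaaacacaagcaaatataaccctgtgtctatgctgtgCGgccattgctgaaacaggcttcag
Gfap, chr11:102897151-102897450, minus strand: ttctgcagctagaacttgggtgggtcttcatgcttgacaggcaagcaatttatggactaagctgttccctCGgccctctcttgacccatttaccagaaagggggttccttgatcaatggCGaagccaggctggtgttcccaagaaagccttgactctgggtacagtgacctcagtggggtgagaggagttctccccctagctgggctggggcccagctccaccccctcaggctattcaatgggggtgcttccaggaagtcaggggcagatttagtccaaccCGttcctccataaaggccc

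Astrocyte and radial glia markers were mostly lower in Y202C. Of 26 measured, 22 were called higher in Y217C, 2 higher in Y202C and 2 were not called, with a median log2 fold change of -1.37 against 0.01 over all genes. Gfap, the intermediate filament protein of astrocytes, was measured at 0.15, 0.0271 and 0 CPM in the Y202C libraries and 8.37, 4.98 and 7.45 CPM in the Y217C libraries (log2 fold change -6.62 ± 0.48, adjusted p = 9.3e-12). Its level was 0.257 ± 0.0284 CPM in m1 KO and 0.159 ± 0.0731 CPM in m1 R172H, and without Y202C replicate 1, which held most of the Gfap counts of its line, the log2 fold change was -8.78 with 2 counts left in Y202C. Gfap exceeded 1 CPM in Y217C and in no other m1 line. The labels describe the cells as cortical astrocytes, and mRNA of this defining marker was thus close to 0 in 3 of the 4 m1 lines. The paper assessed purity by immunofluorescence of GFAP protein, which it describes for the isolated astrocytes before the mutants were introduced. That measure of the starting culture and the mRNA of the later lines are not alike. Gfap overlaps the predicted gene Gm26668 on the opposite strand.

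Several other markers of the list showed the same order. Slc1a3, the glutamate transporter GLAST, was measured at 5.59, 7.45 and 7.03 CPM in the Y202C libraries and 109, 97.8 and 110.3 CPM in the Y217C libraries (log2 fold change -3.99 ± 0.12, adjusted p = 4.8e-19). Clu, the secreted chaperone clusterin, was measured at 16.9, 17.8 and 17.1 CPM in the Y202C libraries and 251, 211 and 263 CPM in the Y217C libraries (log2 fold change -3.81 ± 0.16, adjusted p = 3.5e-16). Mlc1, a membrane protein of astrocyte endfeet, was at 2.41 ± 0.494 against 53.6 ± 7.98 CPM, and S100b, a calcium-binding protein whose gene overlaps Dip2a, was at 0.080 ± 0.0356 against 1.28 ± 0.266 CPM. The water channel Aqp4 was at 1.77 against 8.06 CPM (-2.19), the glutamate transporter Slc1a2 at 1.79 against 7.82 CPM (-2.13) and the lipoprotein Apoe at 6.09 against 21.4 CPM (-1.81). In m1 KO the means were 12.2 ± 0.704 CPM for Slc1a3, 14.2 ± 2.14 CPM for Clu and 0.163 ± 0.049 CPM for Mlc1, nearer to Y202C than to Y217C.

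The remaining markers described here ranged from a lower to a higher level in Y202C. Sox9, a glial fate factor, was at 79.96 ± 4.12 against 150.3 ± 12.7 CPM (-0.91 ± 0.07), and Nes, the progenitor filament nestin, was at 279.8 ± 20.3 against 441 ± 41.5 CPM (-0.66 ± 0.10). Aldh1l1, a folate enzyme of astrocytes, was at 28.4 ± 1.71 against 56.6 ± 6.89 CPM (-0.99 ± 0.12), but here both lines were above m1 KO (0.629 ± 0.11 CPM). Vim, the filament vimentin, was at 4645 ± 271 against 4603 ± 56.7 CPM, a difference that was not called (adjusted p = 0.86). Tnc, a matrix glycoprotein of radial glia, was called higher in Y202C (0.59 ± 0.07), as was Nfia, a gliogenic factor (0.28 ± 0.09). The call of Nfia was lost without Y217C replicate 3 (adjusted p = 0.087), which left 1 of 26 markers higher in Y202C.

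**Figure D2:**
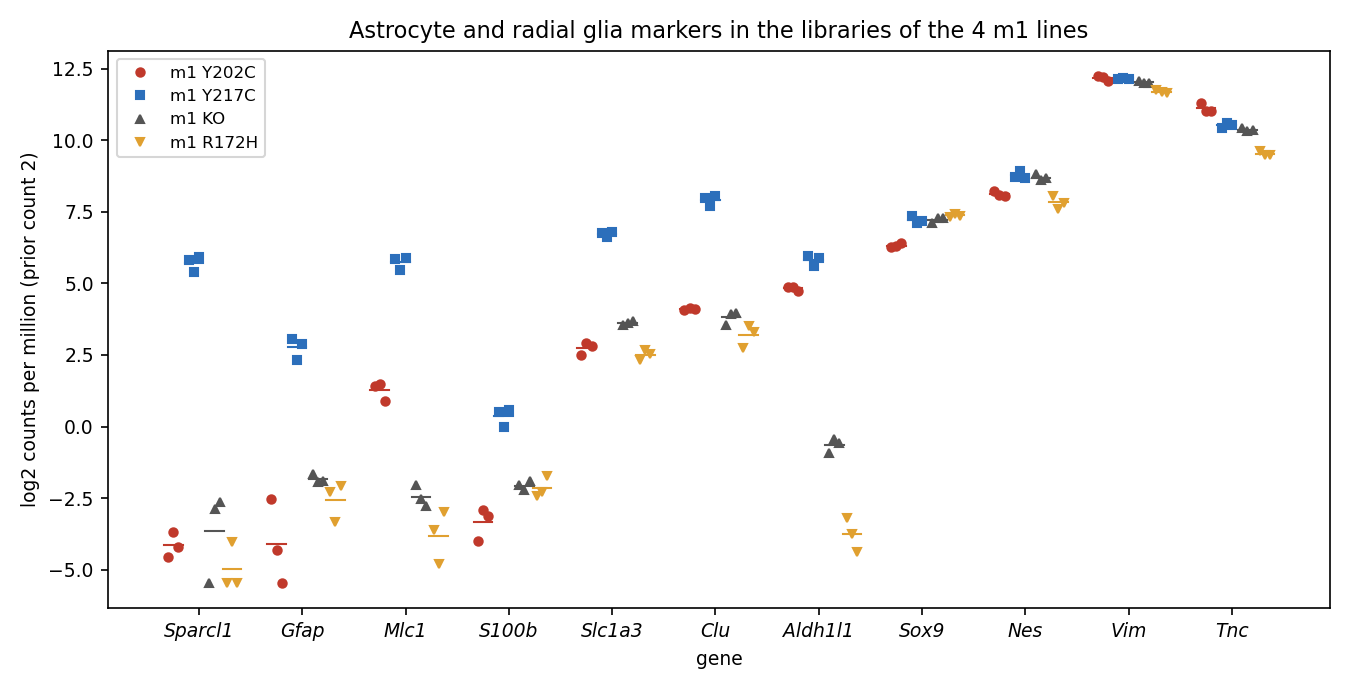
Levels of 11 astrocyte and radial glia markers (x axis) as log2 CPM with a prior count of 2 (y axis) in the 3 libraries of each m1 line, with a horizontal bar at the mean. For Sparcl1, Gfap, Mlc1, S100b, Slc1a3 and Clu, all libraries of Y217C lie above all libraries of the other 3 lines, and Vim is at a similar level in Y202C and Y217C.

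Genes of the reactive astrocyte state did not follow these markers. Of 32 measured, 19 were called higher in Y202C, 9 were called higher in Y217C and 4 were not called, with a median log2 fold change of 0.73. C3, the complement component, was measured at 25.6, 24.2 and 21.6 CPM in the Y202C libraries and 2.98, 2.51 and 3.94 CPM in the Y217C libraries (log2 fold change 2.92 ± 0.16, adjusted p = 3.9e-14). Serping1, the inhibitor of complement C1, was at 2.7 ± 0.628 against 0.375 ± 0.113 CPM and Amigo2, an adhesion protein, at 2.89 ± 0.294 against 0.916 ± 0.233 CPM. The acute-phase copper carrier Cp was at 277 against 101 CPM (1.45), and the receptor subunit Osmr was at 109.9 against 39.4 CPM (1.48). On the other side, Serpina3n, a serine protease inhibitor, was at 0.483 ± 0.0608 against 3.68 ± 0.977 CPM (-2.94 ± 0.31), and the membrane protein Tm4sf1 was at 40.01 ± 3.26 against 203 ± 8.27 CPM (-2.34 ± 0.08). Serpina3n was listed at 0 in all 3 m1 KO libraries.

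Markers of other cell types were present to different degrees. For microglia, 3 of 16 markers were in the table, among them Tmem119 and Csf1r, and their summed level was 72 to 74.3 CPM in the Y202C libraries and 31.7 to 33.3 CPM in the Y217C libraries. The defining microglial genes Aif1, Cx3cr1, Ptprc, Itgam and P2ry12 were not among the genes tested. Of the oligodendrocyte lineage, 8 of 16 were measured, summing to 175 to 201 CPM in the Y202C libraries and 105.0 to 110.3 CPM in the Y217C libraries, and Olig1, Olig2 and Sox10 were not among the genes tested. Nkx2-2, a homeodomain factor of oligodendrocyte precursors, was nevertheless at 0.119 ± 0.0178 against 11 ± 0.863 CPM (-6.54 ± 0.25), whereas Myrf, the myelin regulatory factor, was at 18 ± 1.02 against 3.1 ± 0.129 CPM (2.54 ± 0.10) and Pdgfra, the PDGF receptor of precursors, at 8.12 ± 0.546 against 2.71 ± 0.125 CPM (1.58 ± 0.14). Of neuron markers, 7 of 18 were measured, summing to 118 to 123 CPM in the Y202C libraries and 151 to 161 CPM in the Y217C libraries. Stmn2 and the RNA-binding protein gene Elavl4 (3.58 ± 0.37) were higher in Y202C, and Map2, a dendritic microtubule protein, was at 32.2 ± 4.13 against 116 ± 4.13 CPM (-1.85 ± 0.09). The small difference of Tubb3 (0.33 ± 0.12) was not called without Y202C replicate 1 (adjusted p = 0.091), Y217C replicate 1 (0.079) or Y217C replicate 3 (0.054).

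Fibroblast and mural markers were abundant in both lines. The 16 measured meningeal and fibroblast markers summed to 9518 to 11296 CPM in the Y202C libraries and 17157 to 17762 CPM in the Y217C libraries, and 10 were called higher in Y202C against 3 in Y217C. Most of the sum in Y217C was Col1a1. Thy1, a surface glycoprotein, was at 606 ± 66.7 against 106 ± 8.45 CPM (2.51 ± 0.07) and Dcn, the proteoglycan decorin, at 4.86 ± 0.679 against 0.907 ± 0.206 CPM (2.41 ± 0.22), whereas Aldh1a2, the retinoic acid-forming enzyme of meninges, was at 0.90 ± 0.261 against 16.3 ± 0.547 CPM (-4.21 ± 0.17) and Postn, periostin, at 36.9 ± 3.24 against 170.0 ± 17.1 CPM (-2.21 ± 0.14). Of 11 mural cell markers, 7 were called higher in Y217C and 1 in Y202C, with sums of 3348 to 3893 CPM in the Y202C libraries and 5630.5 to 5853 CPM in the Y217C libraries. Pdgfrb, the receptor for PDGF-BB, was measured at 276, 261 and 242 CPM in the Y202C libraries and 796, 759.6 and 804 CPM in the Y217C libraries (log2 fold change -1.60 ± 0.07, adjusted p = 2.1e-15). Endothelial markers were low, with 7 of 13 measured and sums of 62.3 to 67.4 CPM in the Y202C libraries and 58.7 to 59.6 CPM in the Y217C libraries. Of the 7, 3 were called higher in Y202C, 2 higher in Y217C and 2 were not called. Flt1 was at 51.5 ± 2.95 against 30.4 ± 1.87 CPM (0.76 ± 0.08) and Kdr at 2.18 ± 0.149 against 0.93 ± 0.238 CPM (1.23 ± 0.17), both higher in Y202C. Erg, an ETS factor of endothelium, was at 1.33 ± 0.142 against 17 ± 1.8 CPM (-3.69 ± 0.26), Cdh5, VE-cadherin, at 0.444 ± 0.435 against 4.69 ± 0.184 CPM (-3.51 ± 0.30), and the angiopoietin receptor Tek at 4.64 ± 0.233 against 1.69 ± 0.479 CPM (1.46 ± 0.21). Without Y202C replicate 3, the highest of its line, the change of Cdh5 was -4.61. Pecam1, Cldn5 and Tie1 were not among the genes tested. In bulk libraries, a different share of cells of some type and a different level per cell cannot be told apart, and the part of other cell types in the results was not tested.

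Transcription factors of regional and neural fate divided between the lines. Of 34 measured, 12 were called higher in Y202C, 20 were called higher in Y217C and 2 were not called (median -0.48). Pax6, a factor of cortical radial glia, was measured at 15.1, 16 and 15.9 CPM in the Y202C libraries and 1.52, 1.82 and 2.28 CPM in the Y217C libraries (log2 fold change 3.06 ± 0.21, adjusted p = 3.5e-12). Irx1 was measured at 111, 114 and 113 CPM in the Y202C libraries and 18.2, 17 and 18.3 CPM in the Y217C libraries (log2 fold change 2.66 ± 0.09, adjusted p = 1.8e-17). Irx2 was at 30.7 ± 1.56 against 3.49 ± 0.371 CPM and Lhx2, a selector of cortical fate, at 105.4 against 25.7 CPM (2.04). All 4 of these homeodomain factors were thus higher in Y202C.

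The opposite held for another set. Otx1, a forebrain and midbrain homeodomain factor, was measured at 4.95, 4.37 and 5.95 CPM in the Y202C libraries and 55.6, 57.9 and 57.6 CPM in the Y217C libraries (log2 fold change -3.49 ± 0.11, adjusted p = 3.4e-18). Lmx1b, a dorsal and midbrain LIM homeodomain factor, was at 0.568 ± 0.0432 against 5.87 ± 0.548 CPM (-3.36 ± 0.13), and Nr2f1, a nuclear receptor that patterns the cortex, was at 34 against 333 CPM (-3.29). Sox1, a neural progenitor factor, had 3 counts in all in Y202C, each in replicate 1, and a rate 138 times as high in Y217C (95% Poisson interval of the Y202C counts 47.4 to 672, counting error only). Without that library Sox1 was at 0 in Y202C and its fitted log2 fold change went from -6.97 to -10.24, a value that then depends on the prior count. Of the Hox genes, which pattern the trunk and hindbrain, 6 of 39 were measured and 4 were called higher in Y217C, all of the HoxA cluster. Hoxa7 was at 0.0365 ± 0.0197 against 3.17 ± 0.307 CPM (-6.35 ± 0.44) and Hoxa4 at 0.118 ± 0.0188 against 1.38 ± 0.178 CPM, and Hoxc8 was called higher in Y202C (0.61 ± 0.15). Neighbouring Hox genes and their antisense transcripts overlap, so their counts are uncertain.

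Genes of DNA replication and mitosis were lower in Y202C. Of 46 replication genes, 39 were called higher in Y217C, 2 higher in Y202C and 5 were not called (median -0.91). Rrm2, the regulated subunit of ribonucleotide reductase, was measured at 19.8, 16.4 and 16.9 CPM in the Y202C libraries and 104, 142 and 109.7 CPM in the Y217C libraries (log2 fold change -2.74 ± 0.12, adjusted p = 9.4e-16). Its m1 KO level was 127 ± 15.5 CPM, that of Y217C. Dna2, a nuclease-helicase, was at 1.17 ± 0.15 against 7.53 ± 1.76 CPM (-2.69 ± 0.19), Tk1, thymidine kinase, at 13.4 ± 0.757 against 51.5 ± 6.94 CPM (-1.94 ± 0.12), and Mcm5, a subunit of the replicative helicase, at 45.6 ± 4.74 against 136 ± 15.7 CPM (-1.58 ± 0.11). The exceptions were Mcm2 (0.31 ± 0.09), another helicase subunit, and Rnaseh2a (0.22 ± 0.07), a ribonuclease subunit.

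Of 46 mitosis and spindle checkpoint genes, 41 were called higher in Y217C, 3 higher in Y202C and 2 were not called (median -0.84). Mki67, the proliferation antigen Ki-67, was measured at 127, 106 and 152 CPM in the Y202C libraries and 315, 394 and 344 CPM in the Y217C libraries (log2 fold change -1.45 ± 0.14, adjusted p = 2.4e-09). Aurkb, a mitotic kinase, was at 17.9 ± 1.48 against 56.3 ± 6.98 CPM (-1.65 ± 0.09), Birc5, the survivin gene, at 19.4 ± 0.859 against 60.7 ± 7.48 CPM (-1.65 ± 0.10), and Nuf2, a kinetochore protein, at 12.1 ± 2.6 against 39.3 ± 3.35 CPM (-1.71 ± 0.12). In m1 KO, Mki67 stood at 341 ± 17.3 CPM and Aurkb at 61.4 ± 4.83 CPM, in the range of Y217C. Cdc25b, a phosphatase that activates CDK1, was called higher in Y202C (0.54 ± 0.06), as was the checkpoint protein gene Bub3 (0.38 ± 0.06).

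Among cell cycle regulators, 12 of 23 were called higher in Y217C and 6 higher in Y202C (median -0.23). Cdk6, a G1 kinase, was measured at 42.4, 40.3 and 45.1 CPM in the Y202C libraries and 9.48, 11.5 and 9.45 CPM in the Y217C libraries (log2 fold change 2.07 ± 0.11, adjusted p = 5.4e-14). Cdkn1a, the CDK inhibitor p21 and a classic p53 target, was measured at 19.3, 22 and 21.9 CPM in the Y202C libraries and 9.99, 9.68 and 10.6 CPM in the Y217C libraries (log2 fold change 1.06 ± 0.08, adjusted p = 2.2e-11), and the inhibitor Cdkn1c (p57) at 22.2, 19 and 21.1 CPM in the Y202C libraries and 6.39, 4.49 and 6.62 CPM in the Y217C libraries (log2 fold change 1.83 ± 0.14, adjusted p = 3.2e-11). All 3 were higher in every Y202C library than in any Y217C library. Over all genes tested, the libraries of the 2 lines did not overlap, in either direction, for 10737 genes (74.4%). The inhibitor Cdkn1b (p27) went the other way at 58.9 against 119 CPM (-1.01), as did the E2F factors E2f2 (-1.30 ± 0.12) and E2f7 (-1.38 ± 0.14) and the cyclin Ccne2 (-1.17 ± 0.15). Cdkn2a, which encodes p16 and p19ARF, was at 221 ± 29.3 against 223 ± 11.7 CPM and was not called (adjusted p = 0.94).

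Genes that wild-type p53 activates were divided. Of 44 measured, 19 were called higher in Y202C, 14 were called higher in Y217C and 11 were not called (median 0.10), against 38.0% and 35.6% of all genes in the 2 directions. Higher in Y202C were Eda2r, a death-domain receptor, at 6.99 ± 0.468 against 1.13 ± 0.111 CPM (2.63 ± 0.18), the long noncoding RNA Trp53cor1 (2.51 ± 0.23), and Pmaip1, the pro-apoptotic protein Noxa, at 29.1 ± 4.39 against 5.38 ± 0.545 CPM (2.43 ± 0.12). Gadd45a, a growth-arrest gene, was at 119.9 against 22.6 CPM (2.41), and Tnfrsf10b, the TRAIL receptor, at 19 against 4.56 CPM (2.06). Higher in Y217C were Perp, a desmosomal membrane protein, at 1.15 ± 0.164 against 4.58 ± 0.0856 CPM (-1.99 ± 0.14), Sesn1, a sestrin that restrains mTORC1, at 13.5 ± 0.357 against 46.5 ± 3.77 CPM (-1.79 ± 0.09), and Psrc1, a spindle protein (-1.52 ± 0.10). Mdm2, the ubiquitin ligase of p53, was at 86.7 against 67.6 CPM (0.36). Pmaip1 stood at 13.7 ± 0.902 CPM in m1 KO, between the 2 lines, whereas Eda2r and Trp53cor1 in KO were at 1.31 ± 0.0315 and 1.88 ± 0.494 CPM, near Y217C.

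In the integrated stress response, phosphorylated eIF2alpha raises ATF4 and its amino acid and tRNA-charging targets, and the unfolded protein response answers stress of the endoplasmic reticulum. Of 36 genes in 1 list of both responses, 25 were called higher in Y202C, 7 were called higher in Y217C and 4 were not called (median 0.74). Ddit3, the factor CHOP, was measured at 365, 380.0 and 345 CPM in the Y202C libraries and 65.4, 54.2 and 62.4 CPM in the Y217C libraries (log2 fold change 2.58 ± 0.08, adjusted p = 1.3e-18). Trib3, a pseudokinase induced by ATF4, was measured at 414, 376 and 341 CPM in the Y202C libraries and 64.4, 52.7 and 60.4 CPM in the Y217C libraries (log2 fold change 2.67 ± 0.11, adjusted p = 3.8e-16), and Cth, cystathionine gamma-lyase, at 146, 143 and 139.9 CPM in the Y202C libraries and 25.5, 18.1 and 25.9 CPM in the Y217C libraries (log2 fold change 2.63 ± 0.10, adjusted p = 1.4e-16). For each of them the 2 groups of libraries were far apart, and the m1 KO means were 46.6 ± 4.67, 84.7 ± 11.7 and 20.6 ± 2.07 CPM. Atf4 itself was at 893 against 307 CPM (1.54), the asparagine synthetase gene Asns at 430.1 against 194 CPM (1.15), the glutathione-degrading enzyme Chac1 at 186 against 45.4 CPM (2.03) and the folate enzyme Aldh1l2 at 703 against 182 CPM (1.95).

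Chaperones of the endoplasmic reticulum did not move as a block. Hspa5, the chaperone BiP, was at 977 against 567 CPM (0.79), whereas Calr, calreticulin, was at 645 ± 25.8 against 1111 ± 45.5 CPM (-0.78 ± 0.07), Pdia4, a disulfide isomerase, at 127 ± 2.1 against 177 ± 7.52 CPM (-0.48 ± 0.06), and Sdf2l1, a luminal chaperone partner, at 6.49 ± 1.04 against 12.2 ± 0.967 CPM (-0.90 ± 0.11). Eif2ak3, the kinase PERK that phosphorylates eIF2alpha, was lower in Y202C, at 12.1, 13.7 and 12.7 CPM in the Y202C libraries and 28.2, 31 and 30.2 CPM in the Y217C libraries (log2 fold change -1.22 ± 0.07, adjusted p = 1.8e-13). Ddit3 overlaps Mars on the opposite strand.

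AP-1 and ATF transcription factors, which bind as dimers to short palindromic sites and respond to growth factors and stress, were also mostly higher in Y202C. Of 20 measured, 17 were called higher in Y202C, 2 were called higher in Y217C and 1 was not called (median 0.76). Atf3, a stress-induced repressor and activator, was measured at 81.1, 79.8 and 77.5 CPM in the Y202C libraries and 14.1, 10.03 and 13.4 CPM in the Y217C libraries (log2 fold change 2.67 ± 0.13, adjusted p = 6.2e-15). Atf6, the membrane-bound sensor of the unfolded protein response, was measured at 199.5, 199 and 212 CPM in the Y202C libraries and 58.9, 55.9 and 62 CPM in the Y217C libraries (log2 fold change 1.79 ± 0.05, adjusted p = 8.0e-19). Fosb was at 11.4 ± 0.922 against 3.49 ± 0.211 CPM (1.70 ± 0.17) and Junb at 349 against 181 CPM (0.95). Fos went the other way at 12.4 ± 0.367 against 18.2 ± 2.58 CPM (-0.55 ± 0.15), and Jun was not called (124 against 134 CPM).

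The letters of the AP-1 site, TGANTCA, were found on either strand in 5.19% of promoter windows of all genes tested, in 9.09% of windows of genes more than 4-fold higher in Y202C and in 7.32% of those more than 4-fold higher in Y217C. The TATA box TATAAA was found in 7.06%, 11% and 10.04%, the CRE TGACGTCA in 3.01%, 2.39% and 1.05%, the E-box CACGTG in 9.77%, 8.13% and 8.37%, and the CCAAT box CCAAT in 37.6%, 34.0% and 35.8%, respectively. TGACGTCA and TGANTCA share their outer letters, but neither contains the other, and all of these are matches of letters and not measured binding. Of the 41 genes named by the fixed rule that were more than 4-fold higher in Y202C and had a window, 4 held TGANTCA, and of the 40 such genes higher in Y217C, 3 held it. The windows of the former 4 are printed as examples with the match in capitals. They belong to the P450 gene Cyp4b1, the protease gene Mmp3 (6.06 ± 0.21 against 1.49 ± 0.446 CPM), Ddit3 and the interferon-induced membrane protein gene Ifitm3.
Cyp4b1, chr4:115647672-115647971, minus strand: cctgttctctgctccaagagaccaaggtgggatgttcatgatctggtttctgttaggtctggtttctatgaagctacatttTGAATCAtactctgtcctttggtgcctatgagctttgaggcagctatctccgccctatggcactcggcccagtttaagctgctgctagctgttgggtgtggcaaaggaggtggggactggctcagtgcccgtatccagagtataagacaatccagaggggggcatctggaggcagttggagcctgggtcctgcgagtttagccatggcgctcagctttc
Mmp3, chr9:7445572-7445871, plus strand: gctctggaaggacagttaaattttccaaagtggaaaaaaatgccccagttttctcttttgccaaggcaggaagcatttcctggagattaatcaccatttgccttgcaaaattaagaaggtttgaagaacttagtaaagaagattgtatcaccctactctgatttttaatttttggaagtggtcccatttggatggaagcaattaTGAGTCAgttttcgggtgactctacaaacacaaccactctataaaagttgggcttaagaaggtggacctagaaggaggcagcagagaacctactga
Ddit3, chr10:127290543-127290842, plus strand: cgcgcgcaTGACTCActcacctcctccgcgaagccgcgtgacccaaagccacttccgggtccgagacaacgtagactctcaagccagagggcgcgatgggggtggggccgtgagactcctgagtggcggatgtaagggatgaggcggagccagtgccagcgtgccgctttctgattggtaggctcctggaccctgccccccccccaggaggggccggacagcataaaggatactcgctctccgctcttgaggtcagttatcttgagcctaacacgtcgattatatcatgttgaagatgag
Ifitm3, chr7:141010695-141010994, minus strand: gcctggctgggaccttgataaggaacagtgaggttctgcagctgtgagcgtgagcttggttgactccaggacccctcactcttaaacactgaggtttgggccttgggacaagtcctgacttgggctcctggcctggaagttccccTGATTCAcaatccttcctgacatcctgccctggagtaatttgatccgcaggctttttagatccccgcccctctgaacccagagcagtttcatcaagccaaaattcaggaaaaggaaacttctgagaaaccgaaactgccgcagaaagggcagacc
The match began 169 bases before the start in Cyp4b1, 46 before it in Mmp3, 242 before it in Ddit3 and 105 before it in Ifitm3.

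Cytokine and NF-kB response genes were mostly higher in Y202C. Of 29 measured, 21 were called higher in Y202C, 4 were called higher in Y217C and 4 were not called, and their median of 1.12 was the highest of the 42 lists. Il1rl1, the receptor for IL-33, was measured at 17.7, 18.1 and 18.6 CPM in the Y202C libraries and 3.13, 3.16 and 2.83 CPM in the Y217C libraries (log2 fold change 2.58 ± 0.09, adjusted p = 8.6e-18). Bcl3, an atypical IkB protein, was measured at 15.7, 17.1 and 15.4 CPM in the Y202C libraries and 3.47, 2.98 and 2.97 CPM in the Y217C libraries (log2 fold change 2.35 ± 0.14, adjusted p = 1.8e-13). The epithelial cytokine Tslp was at 2.27 ± 0.289 against 0.347 ± 0.109 CPM (2.70 ± 0.19), and Csf1, the macrophage growth factor, was abundant in both lines at 1459.8 against 506 CPM (1.53). The NF-kB subunits Nfkb2 (1.35) and Relb (1.48) were higher in Y202C, but the inhibitor Nfkbia was at 24.7 ± 1.75 against 46.4 ± 1.63 CPM (-0.91 ± 0.06). Il33, the ligand of Il1rl1, was higher in Y217C at 2.52 ± 0.173 against 7.25 ± 0.735 CPM (-1.53 ± 0.19), as was Il18 (-0.63 ± 0.16). For Il1rl1 the m1 KO mean was 53.9 ± 1.09 CPM, above both lines.

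Chemokines went in both directions, with 9 of 20 called higher in Y202C and 6 higher in Y217C. Cxcl14, a chemokine of epithelia and fibroblasts, was measured at 18.2, 19.7 and 19.4 CPM in the Y202C libraries and 231, 202.2 and 246 CPM in the Y217C libraries (log2 fold change -3.57 ± 0.11, adjusted p = 2.7e-18). Cx3cl1, fractalkine, was measured at 137.2, 144 and 130.0 CPM in the Y202C libraries and 290.4, 270.0 and 295 CPM in the Y217C libraries (log2 fold change -1.06 ± 0.07, adjusted p = 7.6e-12). Both were above the m1 KO levels of 6.15 ± 1.2 and 87.7 ± 7.31 CPM in each line. Cxcr4, the receptor for CXCL12, was at 0.587 ± 0.151 against 3.25 ± 0.0646 CPM (-2.47 ± 0.38). On the Y202C side stood the neutrophil chemokine Cxcl1 (1.10 ± 0.17), Ccl28 (1.65 ± 0.31) and Ccr10 (1.96 ± 0.29), the last of which encodes the receptor of CCL28 and overlaps Cntnap1.

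Antigen presentation on MHC class I and interferon-stimulated genes differed gene by gene. Of 18 MHC class I and processing genes, 8 were called higher in Y202C, 5 were called higher in Y217C and 5 were not called (median 0.19). H2-K1, a classical class I heavy chain, was measured at 161, 162 and 146 CPM in the Y202C libraries and 24.2, 24 and 26 CPM in the Y217C libraries (log2 fold change 2.66 ± 0.11, adjusted p = 7.0e-16). Nlrc5, the transactivator of class I genes, was measured at 10.2, 8.27 and 8.86 CPM in the Y202C libraries and 1.78, 1.05 and 1.59 CPM in the Y217C libraries (log2 fold change 2.63 ± 0.17, adjusted p = 9.0e-13). H2-T23 was at 27.7 ± 1.52 against 8.84 ± 1.17 CPM, and the classical chain H2-D1 was at 94.4 against 30.6 CPM (1.63), whereas B2m, the shared light chain, was not called (573 against 560.4 CPM). Tapbp, the peptide-loading protein tapasin, was higher in Y217C (-0.81 ± 0.09), as was the immunoproteasome subunit Psmb10 (-0.74 ± 0.10). Class I heavy chain genes are near copies of each other, and reads may be split among them.

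Of 47 interferon-stimulated genes, 12 were called higher in Y202C, 17 were called higher in Y217C and 18 were not called (median 0.02). Ifitm3, which restricts virus entry, was measured at 296, 338 and 287 CPM in the Y202C libraries and 49.8, 41.1 and 47.8 CPM in the Y217C libraries (log2 fold change 2.73 ± 0.12, adjusted p = 5.2e-16). The secreted ubiquitin-like Isg15 was at 4.45 ± 1.5 against 1.03 ± 0.154 CPM (2.10 ± 0.27) and Ifi27 at 26.7 ± 3.06 against 5.42 ± 0.267 CPM (2.30 ± 0.13). Ifit3, an RNA-binding effector, went the other way at 7.77 ± 0.885 against 21.6 ± 3.81 CPM (-1.47 ± 0.21), as did Ifit3b (-1.27 ± 0.25) and Rtp4 (-1.06 ± 0.16).

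Imprinted genes, of which a single parental copy is expressed, differed in both directions. Igf2, the paternally expressed insulin-like growth factor, was measured at 9.46, 8.8 and 9.72 CPM in the Y202C libraries and 0.537, 0.427 and 0.683 CPM in the Y217C libraries (log2 fold change 4.09 ± 0.22, adjusted p = 3.9e-14). H19, the maternally expressed noncoding RNA next to Igf2, was measured at 54.2, 62.9 and 56.7 CPM in the Y202C libraries and 2.78, 2.02 and 2.54 CPM in the Y217C libraries (log2 fold change 4.56 ± 0.16, adjusted p = 1.5e-17). In m1 KO, Igf2 stood at 6.39 ± 1.63 CPM and H19 at 54 ± 8.15 CPM, so that both were low in Y217C alone among these 3 lines. Phlda2 and Cdkn1c, maternally expressed neighbours of that domain, were at 0.63 ± 0.102 against 0.0256 ± 0.025 CPM (4.52 ± 0.61) and 20.8 ± 1.62 against 5.83 ± 1.17 CPM. Without Y217C replicate 1 the change of Phlda2 was 5.41. The paternally expressed Rasgrf1, a Ras exchange factor, went the other way at 2.57 ± 0.177 against 57 ± 3.5 CPM (-4.48 ± 0.15), as did Peg10, a retrotransposon-derived gene, at 43.2 ± 4.33 against 436 ± 39.7 CPM (-3.34 ± 0.13), and Mest at 3.13 ± 0.252 against 21.5 ± 0.365 CPM (-2.79 ± 0.10). Over the 35 imprinted genes measured, 15 were called higher in Y202C (42.9%), 16 higher in Y217C (45.7%) and 4 were not called (median -0.10). The shares of all genes were 38.0% and 35.6%.

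The IGF axis was divided between binding proteins. Igf1, the ligand, was measured at 8.08, 9.97 and 11.3 CPM in the Y202C libraries and 60.3, 59.6 and 56.9 CPM in the Y217C libraries (log2 fold change -2.60 ± 0.12, adjusted p = 1.1e-15). Igfbp2 was measured at 36.6, 34.2 and 31.6 CPM in the Y202C libraries and 354, 319 and 365 CPM in the Y217C libraries (log2 fold change -3.34 ± 0.12, adjusted p = 2.1e-17), and Igfbp5 at 206, 226 and 219.9 CPM in the Y202C libraries and 913, 852 and 883 CPM in the Y217C libraries (log2 fold change -2.02 ± 0.09, adjusted p = 1.7e-15). Both binding proteins were higher in Y217C, whereas Igfbp4 was at 336 ± 16.4 against 100.3 ± 7.96 CPM (1.74 ± 0.12) and Igfbp6 at 64 ± 2.08 against 20.4 ± 2.36 CPM (1.65 ± 0.10). For Igfbp2, the m1 KO level of 359 ± 50.5 CPM was that of Y217C.

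Of 25 genes of the PDGF, EGF and neuregulin axis, 14 were called higher in Y202C and 5 higher in Y217C (median 0.32). Errfi1, a feedback inhibitor of EGFR, was measured at 90.8, 92.1 and 99.1 CPM in the Y202C libraries and 16.9, 18.2 and 18.6 CPM in the Y217C libraries (log2 fold change 2.39 ± 0.07, adjusted p = 9.4e-19). Hgf, hepatocyte growth factor, was at 8.88 ± 0.339 against 2.61 ± 0.37 CPM and Kitl, the ligand of KIT, at 19.4 ± 2.17 against 6.36 ± 0.437 CPM, both higher in Y202C, whereas Tgfa, an EGFR ligand, was at 1.71 ± 0.124 against 6.16 ± 0.643 CPM (-1.85 ± 0.18) and Gas6, a ligand of AXL, at 56.9 ± 4.12 against 202.03 ± 24.1 CPM (-1.83 ± 0.11). Of 23 FGF genes, 11 were called higher in Y202C (47.8%) and 10 higher in Y217C (43.5%), against 38.0% and 35.6% of all genes. The feedback inhibitors Spry1 (38.1 ± 1.61 against 11.8 ± 0.319 CPM) and Spry4 (29.9 ± 1.08 against 12 ± 1.27 CPM) and the ligand Fgf9 (1.85 ± 0.27) were higher in Y202C, whereas the decoy-like receptor Fgfrl1 (57.2 ± 5.42 against 219.9 ± 16.4 CPM), the receptor Fgfr3 (-1.86 ± 0.18) and the ligand Fgf1 (-2.63 ± 0.38) were higher in Y217C.

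Wnt pathway genes leaned to Y217C. Of 47 measured, 16 were called higher in Y202C, 25 were called higher in Y217C and 6 were not called (median -0.27). Axin2, a feedback target of beta-catenin signaling, was measured at 0.891, 1.25 and 1.17 CPM in the Y202C libraries and 9.33, 9.87 and 9.01 CPM in the Y217C libraries (log2 fold change -3.10 ± 0.17, adjusted p = 6.2e-14). Sfrp4, a secreted Wnt inhibitor, was measured at 1.65, 1.23 and 1.31 CPM in the Y202C libraries and 35.3, 38.8 and 37.7 CPM in the Y217C libraries (log2 fold change -4.72 ± 0.16, adjusted p = 5.4e-18). With Lgr6 these had the largest changes toward Y217C among the Wnt genes at 1 CPM or more, and the secreted Wnt deacylase Notum was at 0.659 against 4.92 CPM (-2.90). The secreted modulators Dkk2 and Dkk3 went the other way. Dkk2 was measured at 77.8, 77.4 and 83.6 CPM in the Y202C libraries and 8.88, 7.94 and 7.86 CPM in the Y217C libraries (log2 fold change 3.27 ± 0.07, adjusted p = 1.7e-21), and Dkk3 was at 49.7 ± 1.77 against 6.16 ± 0.589 CPM (3.01 ± 0.12). The ligand Wnt7a was at 2.9 ± 0.51 against 0.26 ± 0.276 CPM (3.48 ± 0.72), and without Y217C replicate 2, the highest of its line, the change was 4.77. Wnt16 had 40, 36 and 18 counts in the Y202C libraries and 0 in all Y217C libraries, so that it was at least 30.4-fold higher in Y202C against a floor of 3 counts over the Y217C line.

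Of 45 TGF-beta and BMP signaling genes, 17 were called higher in Y202C (37.8%) and 19 higher in Y217C (42.2%), near the 38.0% and 35.6% of all genes. Id2, an inhibitory helix-loop-helix target of BMP signaling, was measured at 3.72, 3.48 and 3.52 CPM in the Y202C libraries and 31.5, 32.2 and 27.1 CPM in the Y217C libraries (log2 fold change -3.08 ± 0.12, adjusted p = 6.3e-17). The activin antagonist Fst was at 0.917 ± 0.30 against 6.59 ± 0.497 CPM (-2.85 ± 0.15) and the BMP antagonist Chrdl1 at 1.26 ± 0.147 against 16.1 ± 0.765 CPM (-3.66 ± 0.22), whereas the ligand Gdf6 was at 3.57 ± 0.719 against 0.579 ± 0.0871 CPM (2.63 ± 0.34). Of 16 Notch genes, 5 were higher in Y202C, among them the targets Hey2 (7.27 ± 0.203 against 1.75 ± 0.132 CPM), Hey1 (11 ± 0.982 against 6.32 ± 0.212 CPM) and Nrarp (7.02 ± 0.829 against 3.59 ± 0.42 CPM). The 8 called higher in Y217C included Lfng, a glycosyltransferase that modifies Notch (11.2 ± 0.766 against 27.4 ± 1.55 CPM), and the noncanonical ligands Dlk1 (-1.54 ± 0.21) and Dlk2 (-2.22 ± 0.19).

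YAP and TAZ target genes, which respond to cell shape and density, were called higher in Y202C for 20 of 30 and higher in Y217C for 7 (median 0.27). Amotl2, an angiomotin, was at 828 ± 25.6 against 375 ± 9.27 CPM (1.14 ± 0.05), Crim1 at 483 ± 37.2 against 237 ± 19.7 CPM and the ectonucleotidase Nt5e at 15.5 ± 0.47 against 6.98 ± 0.443 CPM. In the other direction were the ligand Tgfb2 at 41.4 ± 4.3 against 116 ± 2.56 CPM (-1.48 ± 0.10) and Igfbp3 at 134 ± 11.3 against 447 ± 31 CPM (-1.73 ± 0.12). Of 24 mesenchymal transition genes, 13 were called higher in Y202C and 10 higher in Y217C. The repressor Snai2 was at 100.2 ± 8.58 against 38.4 ± 2.27 CPM (1.38 ± 0.07) and the keratin Krt19 at 44.5 ± 1.82 against 7.91 ± 0.443 CPM (2.49 ± 0.10), whereas the repressor Zeb1 was at 126 ± 8.52 against 198 ± 7.78 CPM (-0.66 ± 0.06) and E-cadherin, Cdh1, at 0.619 ± 0.196 against 1.39 ± 0.328 CPM (-1.19 ± 0.34).

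The extracellular matrix differed in composition. Of 35 collagen genes, 13 were called higher in Y202C (37.1%), 17 higher in Y217C (48.6%) and 5 were not called (median -0.12). Over all genes tested the shares were 38.0% and 35.6%. Col18a1, the basement membrane collagen that yields endostatin, was measured at 396, 421 and 374 CPM in the Y202C libraries and 79.9, 75.5 and 82.9 CPM in the Y217C libraries (log2 fold change 2.32 ± 0.11, adjusted p = 3.7e-15). Col2a1, the cartilage collagen, was measured at 31.2, 24.6 and 24.2 CPM in the Y202C libraries and 119.9, 144 and 123 CPM in the Y217C libraries (log2 fold change -2.27 ± 0.10, adjusted p = 1.1e-15). Col25a1, a transmembrane collagen, was at 0.505 ± 0.138 against 7.09 ± 1.18 CPM (-3.81 ± 0.34) and Col15a1 at 5.32 ± 0.506 against 22.1 ± 2.09 CPM (-2.05 ± 0.18), both higher in Y217C, whereas the hypertrophic cartilage collagen Col10a1 (2.03 ± 0.42) and the basement membrane chain Col4a4 (1.47 ± 0.28) were higher in Y202C.

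Of 29 laminin and integrin genes, 10 were called higher in Y202C (34.5%) and 11 higher in Y217C (37.9%). These shares were near the 38.0% and 35.6% of all genes. Itga11, a collagen-binding integrin, was measured at 42.7, 40.3 and 42.3 CPM in the Y202C libraries and 421, 414 and 444 CPM in the Y217C libraries (log2 fold change -3.35 ± 0.16, adjusted p = 3.6e-15). Itga7, a laminin-binding integrin, was at 50.8 ± 4.69 against 166 ± 4.25 CPM (-1.71 ± 0.10) and Itga8 at 3.48 ± 0.107 against 10.5 ± 1.07 CPM (-1.60 ± 0.15), whereas Itgb7, an integrin subunit best known from lymphocytes, was at 5.34 ± 0.411 against 0.273 ± 0.132 CPM (4.27 ± 0.25) and the laminin chain Lama1 at 6.06 ± 0.597 against 0.875 ± 0.263 CPM (2.80 ± 0.17). Among 36 matrix proteases and inhibitors, 16 were called higher in Y202C (44.4%) and 17 higher in Y217C (47.2%). Adamtsl5 at 97.9 ± 7.63 against 15.1 ± 2.23 CPM (2.70 ± 0.09) and Mmp11 at 126 ± 10.3 against 48.7 ± 5.2 CPM were on the Y202C side. Mmp17 at 1.35 ± 0.263 against 14.4 ± 1.22 CPM (-3.40 ± 0.15) was on the Y217C side.

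Cadherins and protocadherins, which mediate calcium-dependent adhesion between cells, were mostly higher in Y217C. Of 33 measured, 8 were called higher in Y202C, 23 were called higher in Y217C and 2 were not called (median -0.88). Cdh22 was measured at 0.0701, 0 and 0.0915 CPM in the Y202C libraries and 4.44, 5.02 and 4.69 CPM in the Y217C libraries (log2 fold change -6.41 ± 0.53, adjusted p = 3.2e-10), and limma gave a log2 fold change of -7.97. Cdh3, P-cadherin, was measured at 7.09, 5.04 and 5.41 CPM in the Y202C libraries and 0.362, 0.323 and 0.616 CPM in the Y217C libraries (log2 fold change 3.77 ± 0.16, adjusted p = 4.5e-16), and Pcdh19 at 194, 179 and 197 CPM in the Y202C libraries and 61.9, 69.4 and 62.8 CPM in the Y217C libraries (log2 fold change 1.56 ± 0.06, adjusted p = 3.4e-16). The last 2 belonged to the minority that were higher in Y202C, and their m1 KO means of 8.71 ± 0.629 and 279 ± 10.9 CPM were above both lines.

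Axon guidance genes were split, with 20 of 61 called higher in Y202C and 31 higher in Y217C (median -0.27). The secreted semaphorins Sema3a (129.9 ± 8.79 against 27.7 ± 2.34 CPM, 2.23 ± 0.09) and Sema3e (61.2 ± 1.58 against 14.9 ± 1.33 CPM, 2.04 ± 0.07) and the transmembrane Sema4f (9.23 ± 1.59 against 0.744 ± 0.333 CPM) were higher in Y202C. On the Y217C side, beside Sema5b, stood Sema6a (1.03 ± 0.266 against 21.1 ± 2.49 CPM) and Plxnb3, a semaphorin receptor. Plxnb3 was measured at 1.53, 0.163 and 0.061 CPM in the Y202C libraries and 43.2, 43.6 and 44.9 CPM in the Y217C libraries (log2 fold change -6.06 ± 0.65, adjusted p = 1.2e-08). Its 3 Y202C libraries spread over a far wider ratio than those of Y217C, with replicate 1 the highest, and without that library the log2 fold change was -8.57.

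**Figure D3:**
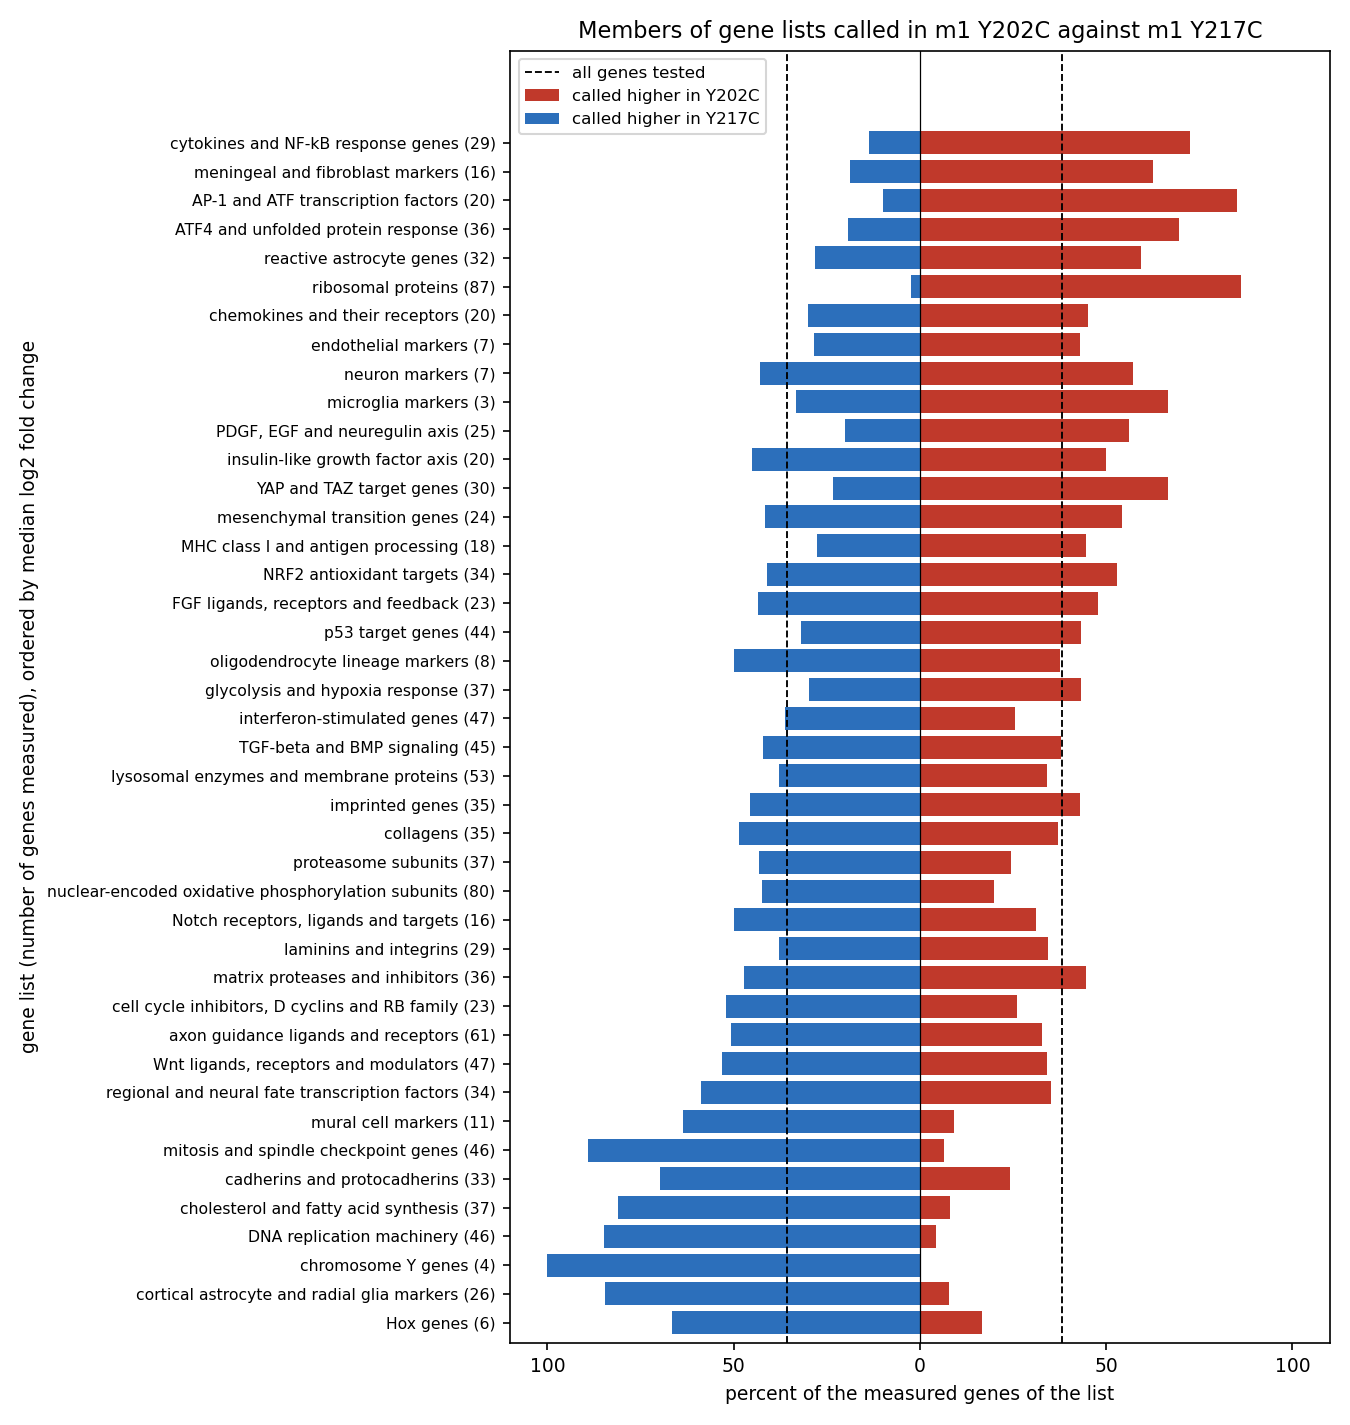
Bars give the percent of measured genes of each of 42 lists (number measured in parentheses) that were called higher in Y202C (red, to the right) or higher in Y217C (blue, to the left). Lists are ordered by their median log2 fold change, and dashed lines mark 38.0% and 35.6%, the shares over all genes tested. Ribosomal protein, AP-1 and ATF, cytokine and ATF4 genes extend past the line on the Y202C side, and replication, mitosis, cholesterol and astrocyte marker genes extend past it on the Y217C side.

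Ribosomal protein genes were mostly higher in Y202C. Of 87 ribosomal protein genes measured, 75 were called higher in Y202C, 2 were called higher in Y217C and 10 were not called (median 0.55). Their summed share of all counts was 5.28%, 5.59% and 5.20% in the Y202C libraries and 3.86%, 3.79% and 3.83% in the Y217C libraries, with 4.61%, 4.66% and 4.4% in m1 KO between them. Rps20 was at 775 ± 74.5 against 360.2 ± 8.81 CPM (1.10 ± 0.09) and Rpl13a at 1225 ± 102 against 582 ± 12.1 CPM (1.08 ± 0.07). The calls on the Y217C side were Rps4l (-2.26) and Rpl36al (-0.15 ± 0.06). Rpl36al was not called without Y202C replicate 1 (adjusted p = 0.16), Y217C replicate 1 (0.050) or Y217C replicate 2 (0.068). Ribosomal protein genes have many processed copies in the genome, so that uniquely placed reads may undercount them.

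Mitochondrially encoded transcripts went the other way. All 13 protein-coding genes of the mitochondrial genome were called higher in Y217C, with log2 fold changes from -1.43 to -0.52. Their share together with the 1 other mitochondrial gene was 1.59%, 1.77% and 2.33% of counts in the Y202C libraries, 3.47%, 3.0% and 2.91% in the Y217C libraries and 1.63%, 1.83% and 1.71% in m1 KO. The Y202C library with the highest share was replicate 3. mt-Co1, a catalytic subunit of complex IV, was measured at 4649.9, 4741 and 5924 CPM in the Y202C libraries and 8265, 6933 and 6722 CPM in the Y217C libraries (log2 fold change -0.52 ± 0.12, adjusted p = 3.6e-04), mt-Cytb at 3908, 4377 and 5599.9 CPM in the Y202C libraries and 7569, 6509.9 and 6349 CPM in the Y217C libraries (log2 fold change -0.56 ± 0.13, adjusted p = 6.6e-04) and mt-Nd1 at 2481, 2757 and 3881 CPM in the Y202C libraries and 5340.4, 4744 and 4541 CPM in the Y217C libraries (log2 fold change -0.68 ± 0.17, adjusted p = 8.4e-04). Nuclear-encoded subunits of oxidative phosphorylation were divided, with 16 of 80 called higher in Y202C, 34 higher in Y217C and a median of -0.13. Cox6a2, the heart and muscle form of a complex IV subunit, was measured at 51.8, 63 and 55.6 CPM in the Y202C libraries and 5.5, 4.58 and 6.21 CPM in the Y217C libraries (log2 fold change 3.39 ± 0.17, adjusted p = 1.1e-14), and it overlaps Itgad.

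Cholesterol and fatty acid synthesis genes, which the SREBP factors control, were lower in Y202C. Of 37 measured, 3 were called higher in Y202C, 30 were called higher in Y217C and 4 were not called (median -0.89). Hmgcs1, which makes HMG-CoA, was measured at 80.7, 78.5 and 86.7 CPM in the Y202C libraries and 238, 255 and 236 CPM in the Y217C libraries (log2 fold change -1.57 ± 0.07, adjusted p = 1.3e-15). Hsd17b7, a sterol reductase, was at 7.75 ± 0.634 against 27.8 ± 0.282 CPM (-1.85 ± 0.08) and Acss2, which makes acetyl-CoA from acetate, at 5.87 ± 0.629 against 22.3 ± 1.01 CPM (-1.92 ± 0.12). Higher in Y202C were Scd1, a fatty acid desaturase, at 207 ± 10.8 against 127 ± 6.22 CPM (0.71 ± 0.06), Acacb (1.34 ± 0.17) and the regulator Srebf1 (0.30 ± 0.07).

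Other metabolic and proteostasis groups had called members in both directions. Over all genes tested, 38.0% were called higher in Y202C and 35.6% higher in Y217C. Of 37 glycolysis and hypoxia genes, 16 were higher in Y202C, including the peptide hormone gene Adm at 75.9 ± 5.03 against 13.1 ± 1.34 CPM (2.53 ± 0.07) and the carbonic anhydrase Car9 at 11.4 ± 0.41 against 4.2 ± 0.375 CPM (1.44 ± 0.12), and 11 were higher in Y217C, including the aldolase Aldoc at 0.774 ± 0.171 against 5.77 ± 0.842 CPM (-2.88 ± 0.23). The lactate exporter Slc16a3 was at 11 ± 1.43 against 3.86 ± 0.104 CPM and at 132 ± 6.79 CPM in m1 KO. Of 34 NRF2 target genes, 18 (52.9%) and 14 (41.2%) were called in the 2 directions. Among them were the carbonyl reductase Cbr1 at 30.01 ± 0.939 against 6.6 ± 0.234 CPM (2.19 ± 0.12) and the glutathione transferase Gsta4 at 1.77 ± 0.134 against 26.5 ± 1.59 CPM (-3.91 ± 0.14). Of 53 lysosomal genes, the counts were 18 (34.0%) and 20 (37.7%), near the shares of all genes. Among them were the cathepsin Ctsz at 237 ± 23.9 against 71.8 ± 3.39 CPM (1.72 ± 0.08) and the ganglioside activator Gm2a at 39.6 ± 0.819 against 87.3 ± 3.69 CPM (-1.14 ± 0.08). Of 37 proteasome subunits, 9 were higher in Y202C and 16 in Y217C, and Psmd8 stood out at 297 ± 4.21 against 94.8 ± 4.01 CPM (1.65 ± 0.06).

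The direction of the differences varied by chromosome. On chromosome 4, 938 genes had a median log2 fold change of 0.39, and 59.8% of them were called higher in Y202C against 21.4% called higher in Y217C. On chromosome 12, 494 genes had a median of -0.33, with 11.9% called higher in Y202C and 58.5% higher in Y217C. In windows of 10 Mb with at least 20 genes, the median was positive in all 14 windows of chromosome 4 (0.18 to 0.53) and negative in all 10 windows of chromosome 12 (-0.49 to -0.25). Chromosomes 3 and 16 were positive in all 12 and all 7 windows, and chromosome 14 was negative in all 8. Over the 229 windows of the genome, 122 medians were positive and 107 negative, between -0.81 at chr1:20000001-30000000 (23 genes) and 0.56 at chr16:50000001-60000000 (31 genes). Against m1 KO, the chromosome 4 median was 0.29 for Y202C and -0.08 for Y217C, and the chromosome 12 median was -0.16 for Y202C and 0.15 for Y217C. The f1 lines had medians of -0.27 on chromosome 4 and 0.17 on chromosome 12. Copy number was not analysed here, and its part in these medians was not tested.

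**Figure D4:**
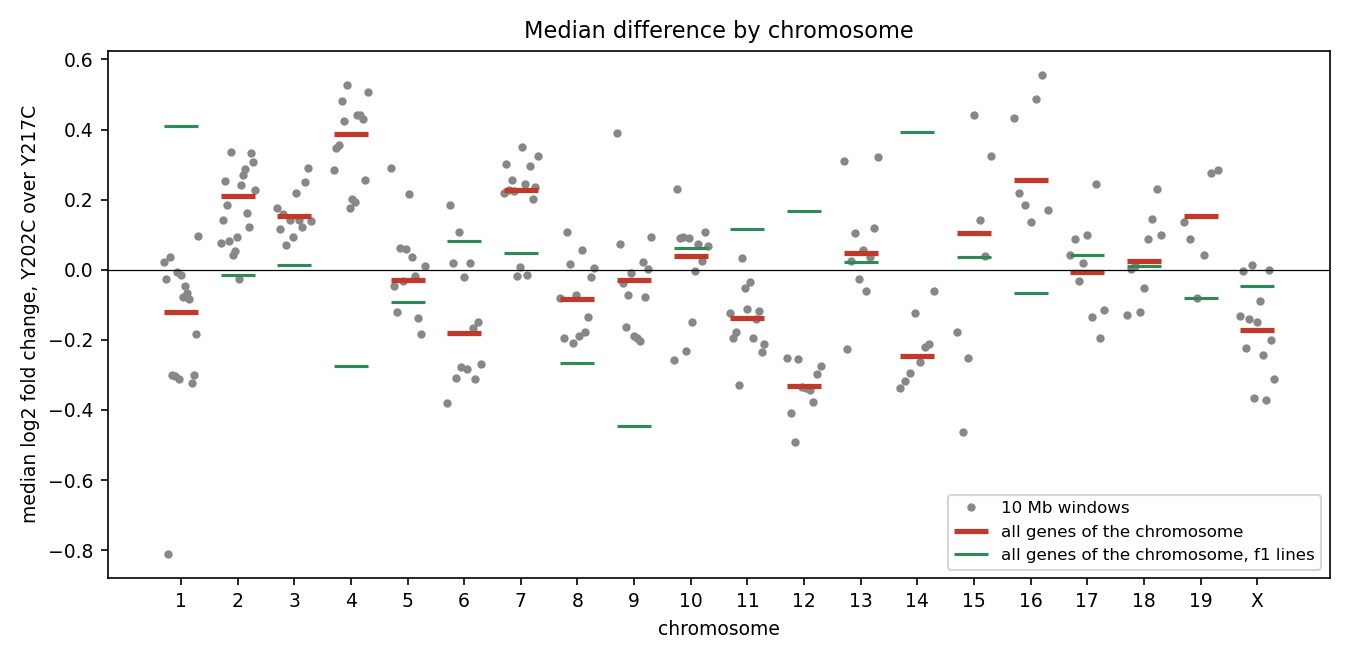
Median log2 fold change, Y202C over Y217C (y axis), of the genes of each chromosome (x axis). Red bars are all tested genes of a chromosome in m1, grey points its 10 Mb windows with at least 20 genes in m1, and green bars all tested genes of the chromosome in f1. All windows of chromosome 4 lie above 0 and all windows of chromosome 12 below 0.

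All 4 measured genes of the Y chromosome list were called higher in Y217C. Of the 7 genes tested that lie on this chromosome, 2 were called higher in Y202C, the pseudogene Mid1-ps1 (0.60) and the predicted gene Gm47283 (0.67). Ddx3y, an RNA helicase, was measured at 17.2, 18.7 and 20.6 CPM in the Y202C libraries and 27.6, 27.1 and 27.9 CPM in the Y217C libraries (log2 fold change -0.55 ± 0.08, adjusted p = 5.0e-06). Eif2s3y, a translation initiation factor subunit, was at 9.73 ± 0.752 against 22.8 ± 1.81 CPM (-1.23 ± 0.10), the histone demethylase Kdm5d at 6.2 ± 0.287 against 12.1 ± 0.93 CPM (-0.96 ± 0.10) and Uty at 4.21 ± 0.614 against 8.08 ± 0.141 CPM (-0.95 ± 0.14). Both lines were below m1 KO, at 64 ± 1.86, 31.8 ± 1.07, 27.5 ± 1.13 and 18 ± 0.591 CPM in the same order, and below m1 R172H, at 56.6 ± 1.66, 30.6 ± 1.32, 26 ± 2.11 and 15.2 ± 0.348 CPM.

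The same 2 mutations were compared in the female f1 culture, whose libraries are not shared with m1. There, 9032 genes were called (62.6% of genes tested), 4637 of them higher in Y202C and 4395 higher in Y217C, and 1908 changed more than 2-fold. The log2 fold changes of m1 and f1 had a Pearson correlation of -0.16 and a Spearman correlation of -0.14 across the 14427 genes, which are not independent replicates. Of genes called with more than 2-fold change, 992 were shared, which is 32.4% of those of m1 and 52.0% of those of f1. In 350 of the 992 the direction was the same, with 214 higher in Y202C and 136 higher in Y217C, and in 642 it was opposite. The test of the difference between the cultures, (Y202C minus Y217C in m1) minus the same in f1, called 10187 genes (70.6%).

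Trp53 was among the genes of opposite direction. In f1 it was at 593 ± 18 against 3709 ± 162 CPM in Y202C against Y217C (log2 fold change -2.64 ± 0.06, adjusted p = 2.3e-21), and the difference from m1 was 3.58 ± 0.08, adjusted p = 1.8e-21. In f1, among the astrocyte markers, Slc1a3 was at 42.7 ± 3.88 against 3.14 ± 0.0908 CPM (3.76) and Clu at 48.7 ± 0.201 against 17.9 ± 2.92 CPM (1.44). Of the 26 markers, 13 were called higher in Y202C and 7 higher in Y217C, with a median of 0.65, beside 4637 and 4395 of all 14427 genes. Of the 12 genes furthest toward Y202C in m1, Dlg2 (5.16), Car6 (1.67), Cpne4 (2.66), Stmn2 (3.09) and Shank3 (2.28) were also called higher in Y202C in f1, whereas Gvin1 (-4.13) was called lower. In f1 the means of Dlg2 (0.67 ± 0.0688 against 0.0157 ± 0.0271 CPM) and Cpne4 (0.181 ± 0.107 against 0.0268 ± 0.0255 CPM) were below 1 CPM in both lines. Of the 12 furthest toward Y217C, C1qtnf3 (-1.70), Kif1a (-2.27) and Dpysl5 (-1.69) were also called higher in Y217C in f1, whereas Fmo1 (4.4) was called higher in Y202C. The f1 means of C1qtnf3, Dpysl5 and Fmo1 were below 1 CPM in both lines as well.

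In some gene groups most calls had the same direction in both cultures, although the size of the difference often was not the same. List counts in f1 are to be read beside the 4637 genes called higher in Y202C and 4395 higher in Y217C, of 14427 tested. Of 46 mitosis genes in f1, 0 were called higher in Y202C and 44 higher in Y217C, with a median of -0.63, and of 46 replication genes, 3 were called higher in Y202C and 33 higher in Y217C, with a median of -0.45. Of 37 cholesterol and fatty acid synthesis genes, 2 were called higher in Y202C and 25 higher in Y217C, with a median of -0.33. Of 29 cytokine and NF-kB response genes, 16 were called higher in Y202C and 7 higher in Y217C, with a median of 0.46. The difference between the cultures was called for 33 of the 46 mitosis genes, 30 of the 46 replication genes, 31 of the 37 synthesis genes and 26 of the 29 cytokine and response genes, against 70.6% of all genes. C3 was higher in Y202C in both cultures (2.92 in m1 and 3.76 in f1).

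Other groups had a different balance in f1. Of 36 ATF4 and unfolded protein response genes in f1, 6 were called higher in Y202C and 24 higher in Y217C, with a median of -0.51, and the difference between the cultures was called for 32 of the 36. Trib3 was at -0.58 in f1 against 2.67 in m1. Of 20 AP-1 and ATF genes, 3 were called higher in Y202C and 10 higher in Y217C, with a median of -0.18, and the difference was called for 19. Of 47 interferon-stimulated genes, 44 were called higher in Y202C and 1 higher in Y217C, with a median of 2.05, and the difference was called for 40. Igf2 was at -3.47 in f1 against 4.09 in m1, Cdkn1c at -5.70 against 1.83, Igfbp2 at 5.71 against -3.34 and Cxcl14 at 7.59 against -3.57. For Trib3 and each of these 4 genes the difference between the cultures was itself called. Culture and sex differ together between m1 and f1 and cannot be told apart.

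**Figure D5:**
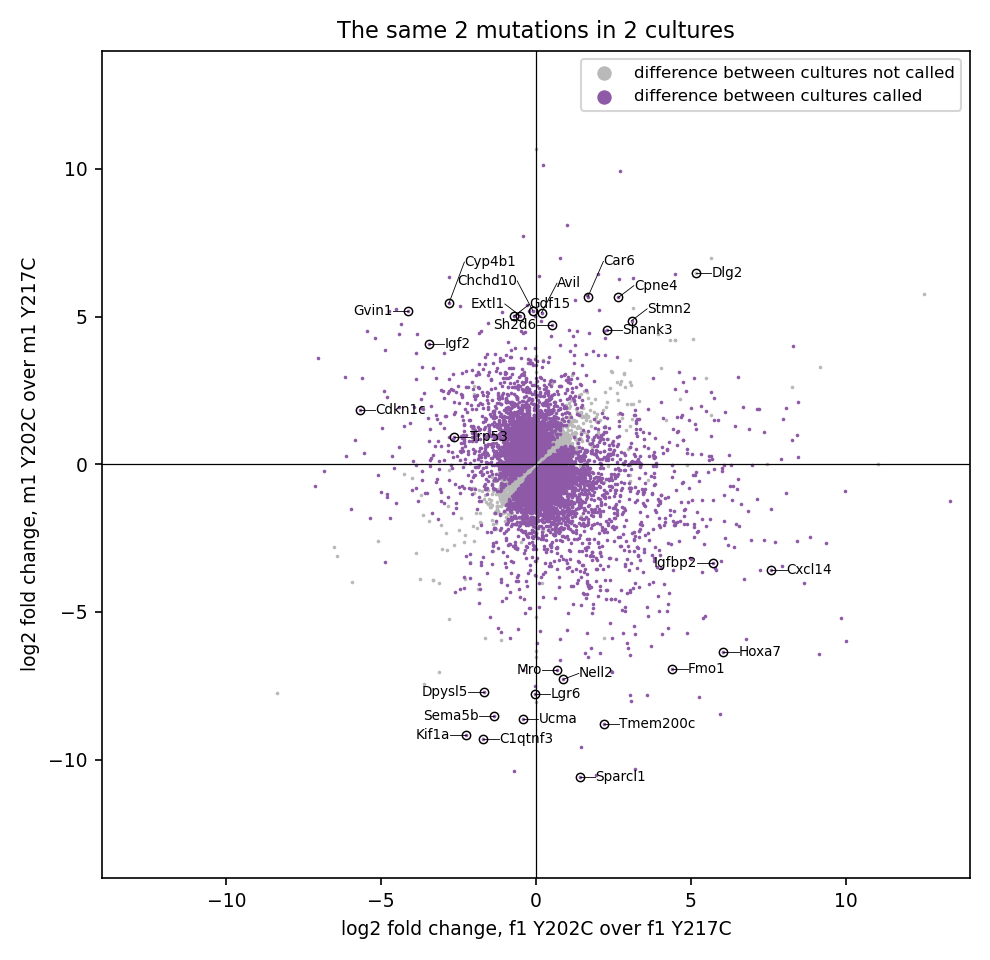
Log2 fold change of Y202C over Y217C in f1 (x axis) and in m1 (y axis) for the 14427 genes tested, with purple points where the difference between the cultures was called and circles on named genes. Dlg2 and Kif1a lie in the same direction in both cultures, whereas Cxcl14, Igfbp2, Igf2 and Cdkn1c lie in opposite quadrants.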

How the data were processed

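PolyA RNA-seq libraries were analysed from the deposited table of whole-number read counts per gene. Per the labels and the methods, the authors aligned reads with STAR 2.5.1a to the Ensembl mouse primary assembly (GRCm38) and took uniquely aligned, unambiguous gene counts with featureCounts. Weakly expressed genes and ribosomal RNA genes had been left out before deposit. The strand used in counting is not given in the sources used here.

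Each library was assigned to its line from its title. All 24 libraries (8 lines with 3 each) entered 1 fit with a mean per line in edgeR 4.0.16 (R 4.3.3), with TMM factors and the quasi-likelihood test, after a filter of more than 1 CPM in at least 2 libraries, which every listed gene passed. Contrasts were Y202C minus Y217C in m1, the same in f1, and their difference. P-values were adjusted by Benjamini-Hochberg over the 14427 genes. Scripts were tested on simulated counts. Alternatives used limma 3.58.1 (voomWithQualityWeights, which the methods name), DESeq2 1.42.0, other scaling, filters, libraries and thresholds. Summaries and plots used Python 3.11.15, numpy 2.4.6, scipy 1.17.1 and matplotlib 3.10.9. Depth allowed genes of a few counts to be seen, and Poisson intervals cover counting error only.

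A few named genes are not reported here. Named genes were Trp53 and the Y genes, the 12 largest fold changes each way at 5 CPM or more in every library of the higher line (predicted genes left out), the 6 largest CPM differences each way, and up to 3 called members of each list and direction at 1 CPM or more. Wnt16, S100b, Slc1a3, Aldh1l1, Sox9, Vim, Nes, Cdkn2a, Clu, Mcm5, Mki67, Eif2ak3, Phlda2 and genes whose m1 fold or level has neither an SD nor an SE (except C1qtnf3 and Sox1, given as counts) were chosen after their values were seen. The lists and comparison were chosen with earlier results of these data known. Promoter windows were matched by symbol to RefSeq (GRCm38.p6).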

Additional observations from a re-analysis of the deposited data

Results flagged for a closer look

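The difference between Y202C and Y217C was itself different in the m1 and f1 cultures for 10187 genes (70.6% of genes tested), by the edgeR quasi-likelihood test of m1 minus f1 at an adjusted p of at most 0.05. Of the 24 genes with the largest fold changes in m1, 22 were among them and Dlg2 was not. For the genes toward Y202C in m1, the difference of the log2 fold changes, m1 minus f1, was Car6 3.996, Cpne4 2.99, Cyp4b1 8.26, Chchd10 5.32, Gvin1 9.33, Avil 4.95, Extl1 5.54, Gdf15 5.73, Stmn2 1.78, Sh2d6 4.19 and Shank3 2.28. For the genes toward Y217C in m1 it was Sparcl1 -11.98, C1qtnf3 -7.60, Kif1a -6.90, Tmem200c -10.97, Ucma -8.19, Sema5b -7.18, Lgr6 -7.74, Dpysl5 -6.00, Nell2 -8.16, Mro -7.65 and Fmo1 -11.33. Cyp4b1 had at most 2 counts in any f1 library, so its value rests on m1 and on the prior count of the fit, and the values of other genes with a few counts in a line depend on that prior count too. All values of the 11 genes toward Y202C were positive and all values of the 11 toward Y217C were negative, a direction set by the choice of genes in m1. Culture and sex cannot be told apart.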

How the results depend on the processing

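The number of genes called between m1 Y202C and Y217C was 9387 (adjusted p of 0.01 or less) to 10859 (limma) over the alternatives and 10054 to 10210 with 1 library left out. Genes above 2-fold numbered 2778 (only the libraries compared) to 3076 (DESeq2), and 3003 to 3101 with 1 library left out. The f1 count was 7632 to 9596, with 8333 to 8794 by leaving out 1 library, and the count for the difference between cultures was 8973 to 10682, with 9900 to 10222. All stayed within 1.5 times the reported counts. The titles number the replicates alike. Deviations of same-numbered libraries of Y202C and Y217C from their line means correlated at -0.07, 0.03 and -0.04 in m1. In f1 these correlations were -0.24, -0.07 and -0.08. With 3 libraries per line, such values cannot show whether same-numbered libraries shared a batch. With a replicate block, 10507 genes were called in m1, 3065 of them above 2-fold, 8893 in f1 and 10086 for the difference.

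Of 269 named genes, 4 lost their call under some alternative, namely Nfia, Tubb3, Ube2c (adjusted p 0.10 to 0.13 without Y202C replicate 3 or Y217C replicate 1 or 3) and Rpl36al, which was also lost under limma (adjusted p = 0.067). None that was called turned direction. Vim and Cdkn2a, which were not called, changed sign around 0. Vim, at 0.01, was at -0.0017 under DESeq2, at -0.0017 under DESeq2 size factors, at -0.0097 with only the libraries compared, and at -0.021 to 0.060 with 1 library left out. Cdkn2a, at -0.0098, was at 0.00697 under limma and at -0.098 to 0.090 with 1 library left out. Limma moved the fold change of 9 named genes by over 1.5 times, all low in 1 line, among them Ucma (-9.75), Gfap (-7.34), Cdh5 (-4.25), Cdh22 (-7.97), Plxnb3 (-7.20), Wnt7a (4.51) and Wnt16 (6.07), and DESeq2 moved Wnt16 (7.34). List counts, checked after the data were seen, moved by over 1.5 times in the astrocyte markers toward Y202C (1 instead of 2 without Y217C replicate 3) and the ribosomal proteins toward Y217C (1 instead of 2 under 5 alternatives). The cause was not tested. Other scalings moved the median of all genes by 0.01 or less. Restricted to genes at 10 CPM or more, the medians were 0.49 on chromosome 4 and -0.28 on chromosome 12.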
